A study of Saccharomyces cerevisiae with 4 samples.

Results

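The genes described here act at Start, the point late in G1 at which a budding yeast cell commits itself to a mitotic division. They were the G1 cyclin genes CLN1, CLN2 and CLN3, the kinase gene CDC28, the transcription factor genes SWI4, SWI6 and MBP1, the inhibitor gene WHI5, the activator gene BCK2 and the cyclin gene PCL1. These 10 genes were listed by name and matched by symbol to the open reading frames (ORFs) of the array, and all 10 were found among its 6218 ORFs. Start is triggered when Cln3 binds the cyclin-dependent kinase Cdc28. The kinase relieves the inhibition that Whi5 places on SBF, a complex of the DNA-binding protein Swi4 with Swi6, and MBF, in which Mbp1 takes the place of Swi4, becomes active at the same stage. SBF switches on CLN1, CLN2 and PCL1, MBF switches on genes of DNA synthesis, and Bck2 activates many of the same genes along a path that does not need Cln3. G1 cyclins are also known to hold back entry into meiosis, and the comparison asks how the transcripts of these genes stood before and after sporulating cells met rich medium.

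The cells were SK1 diploids of strain GF18, whose NDT80 gene, encoding the activator of middle sporulation genes, was driven by the promoter of SPS4, itself a middle sporulation gene. One group was taken after 5.5 h in acetate sporulation medium (SPM), the time in the titles and descriptions, which the source names give as a smaller whole number, and the other groups were taken from the same culture at 0, 20 and 40 min after it had been centrifuged and resuspended in glucose-containing rich medium (YPD). Each of the 4 groups was 1 array, on which the sample was labelled with Cy5. The Cy3 reference was on every array the same RNA of another strain, the wild-type SK1 diploid NKY1551 grown in acetate medium (YPA), so a ratio to the reference holds strain, medium and stage together. No later SPM sample was analysed here, so the effects of the medium, of the transfer and of elapsed time cannot be told apart.

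The values are log2 ratios of sample over reference after normalization, and each is the mean ± SD of the 2 adjacent spots of an ORF. This SD covers noise between adjacent spots and leaves out that between arrays, labellings and cultures, and with 1 array in a group no test was made. A gene was called higher or lower when each of its spots, and so their mean, lay at least 2-fold to the same side. A channel was called above background when either spot was brighter than the 95th percentile of the buffer spots, and a fold with one side below that limit is given as a bound ("at least"). Over all genes 51.9% to 55.8% were above this limit in Cy5 and 69.6% to 75.5% in Cy3, and their median log2 change against 5.5 h at 0, 20 and 40 min was -0.16, -0.26 and -0.22. The sporulating state of the cells was visible in the 10 middle sporulation markers, which were all called higher than the reference on every array, with 1.06% to 2.20% of the Cy5 signal. They included NDT80, whose promoter was replaced in this strain, and SPS4, the source of that promoter. In the reference 1 of the 10 was above background, and with the rest at their bounds the median log2 ratios were 5.94, 6.07, 5.78 and 4.83 in time order. At 40 min 3 of these 10 markers, SMK1, GAS4 and NDT80, were called lower than at 5.5 h, as were 19.8% of all genes. The median change of the 10 was -0.94, and their part in the results below was not tested. Of 6 haploid pheromone genes, which a diploid should keep low, 3 were called higher than the reference at 5.5 h and 1 at 40 min, led by STE18, and their part was not tested either. The 3 were STE18, STE3 and MFA1, and the other 3 had no channel above background at 5.5 h. Together these 6 genes gave 0.118% of the Cy5 signal at 5.5 h and 0.0563% at 40 min.

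Before the transfer, 4 of the 10 Start genes were called against the reference, near the shares over all genes. At 5.5 h in SPM, CDC28 and SWI4 were called higher, as were 21.7% of all genes, and CLN3 and CLN1 were called lower, as were 18.1% of all genes. Neither CLN3 nor CLN1 had a sample signal above background, and their deficits were at least 3.62-fold and 1.06-fold. The other 6 genes lay between -0.32 and 0.97 on the log2 scale. The median over the 10 genes was 0.06, against 0.01 over all genes.

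After the transfer, CLN3 was called higher and CDC28 and SWI4 were called lower. With the main normalization the remaining 7 genes were called in no comparison with 5.5 h. At 0 min the only call was that of CLN3, where 7.59% of all genes were called higher and 4.13% lower. At 20 min CLN3 was called higher and CDC28 and SWI4 lower, where 11.5% of all genes were called higher and 15.8% lower. Each call at 20 min was ended by some alternative, that of CLN3 (1.22) by the study's own steps and those of CDC28 (-0.96) and SWI4 (-1.28) by subtracting the median change of all genes. The same calls were made at 40 min, where 13.9% were called higher and 19.8% lower. The median change of the 10 genes was -0.04, -0.30 and -0.39 in time order, against the medians of all genes given above. No Start gene was called in the step from 0 to 20 min, where 6.2% of all genes were called higher and 7.51% lower, or from 20 to 40 min, where 4.05% and 1.58% were. In bulk RNA, fewer cells that hold a transcript and less of it in each cell cannot be told apart.

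**Figure D1:**
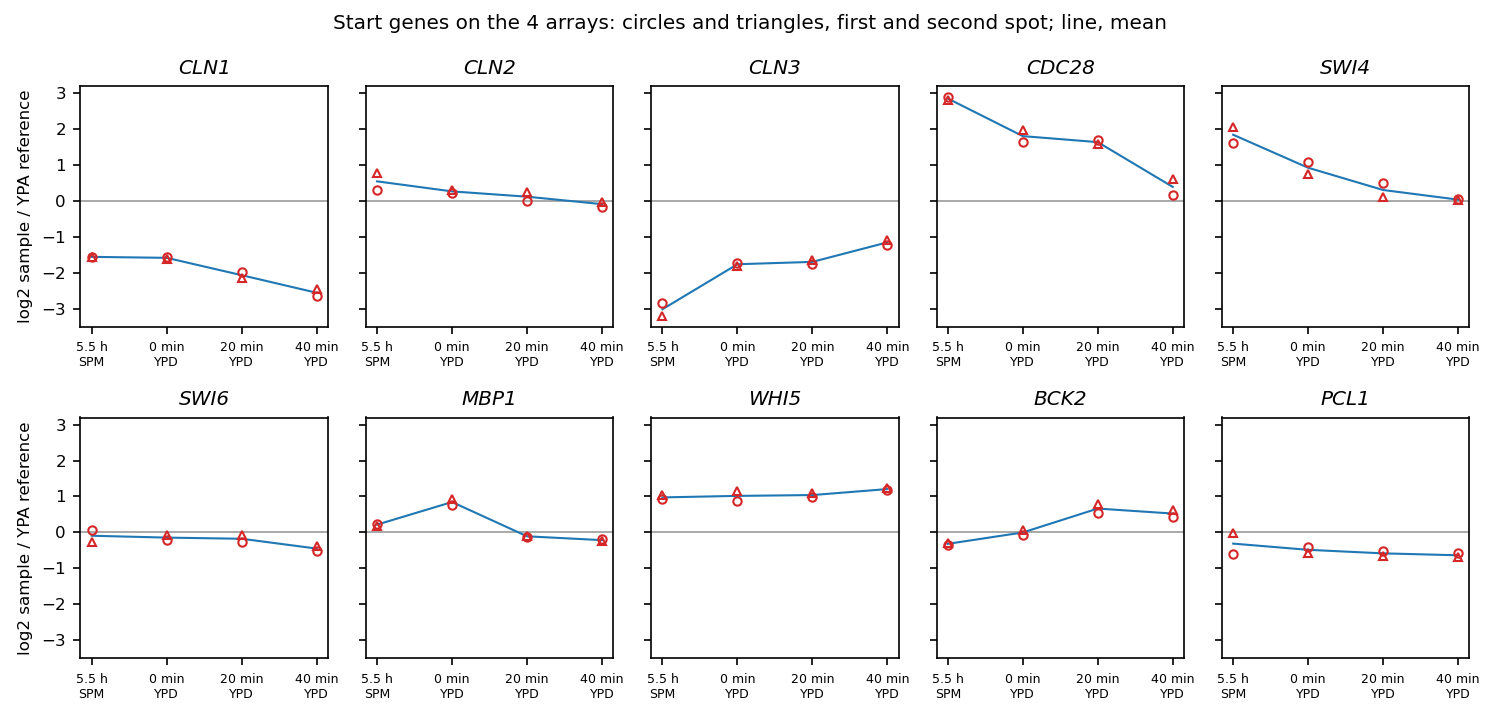
Log2 ratio of sample over YPA reference (vertical axis) for the 10 Start genes on the 4 arrays (horizontal axis, not to scale in time). Circles and triangles are the first and second spot of each ORF and the line joins their means, which run from -3.02 to -1.16 for CLN3, from 2.85 to 0.39 for CDC28 and from 1.84 to 0.03 for SWI4.

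CLN3 encodes the cyclin that starts the chain, and its course was the only one of the 10 that was called upward. Its log2 ratio to the reference was -3.02 ± 0.26 at 5.5 h in SPM, -1.76 ± 0.05 at 0 min, -1.70 ± 0.09 at 20 min and -1.16 ± 0.09 at 40 min. The SPM array was the lowest, its spots did not overlap those of any YPD array, and CLN3 was called lower than the reference on all 4 arrays. At 5.5 h the sample channel was not above background, so CLN3 was there at least 3.62-fold lower than in YPA-grown cells. The deficit that was left at 40 min was 2.23-fold, measured above background on both sides.

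Against 5.5 h, CLN3 was higher by 1.25 ± 0.21 at 0 min, by 1.32 ± 0.35 at 20 min and by 1.86 ± 0.36 at 40 min. CLN3 was thus called higher already in the cells frozen at once after resuspension in YPD. The step from 0 to 20 min was 0.07 ± 0.14 and that from 20 to 40 min was 0.54 ± 0.01, neither of which reached the 2-fold limit. Taken from the measured ratios the rise was 2.38-fold, 2.49-fold and 3.64-fold in time order. Because the SPM sample was not above the buffer spots, the bounds were at least 1.15-fold, 1.35-fold and 1.94-fold. Against the Arabidopsis control spots, a lower limit, CLN3 was above background on every array. The background-subtracted Cy5 intensity of its spots, which is not normalized between arrays, averaged 607 at 5.5 h, 982 at 0 min, 1380 at 20 min and 3254 at 40 min, whereas the Cy3 intensity of the reference lay between 4487 and 5902.

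**Figure D2:**
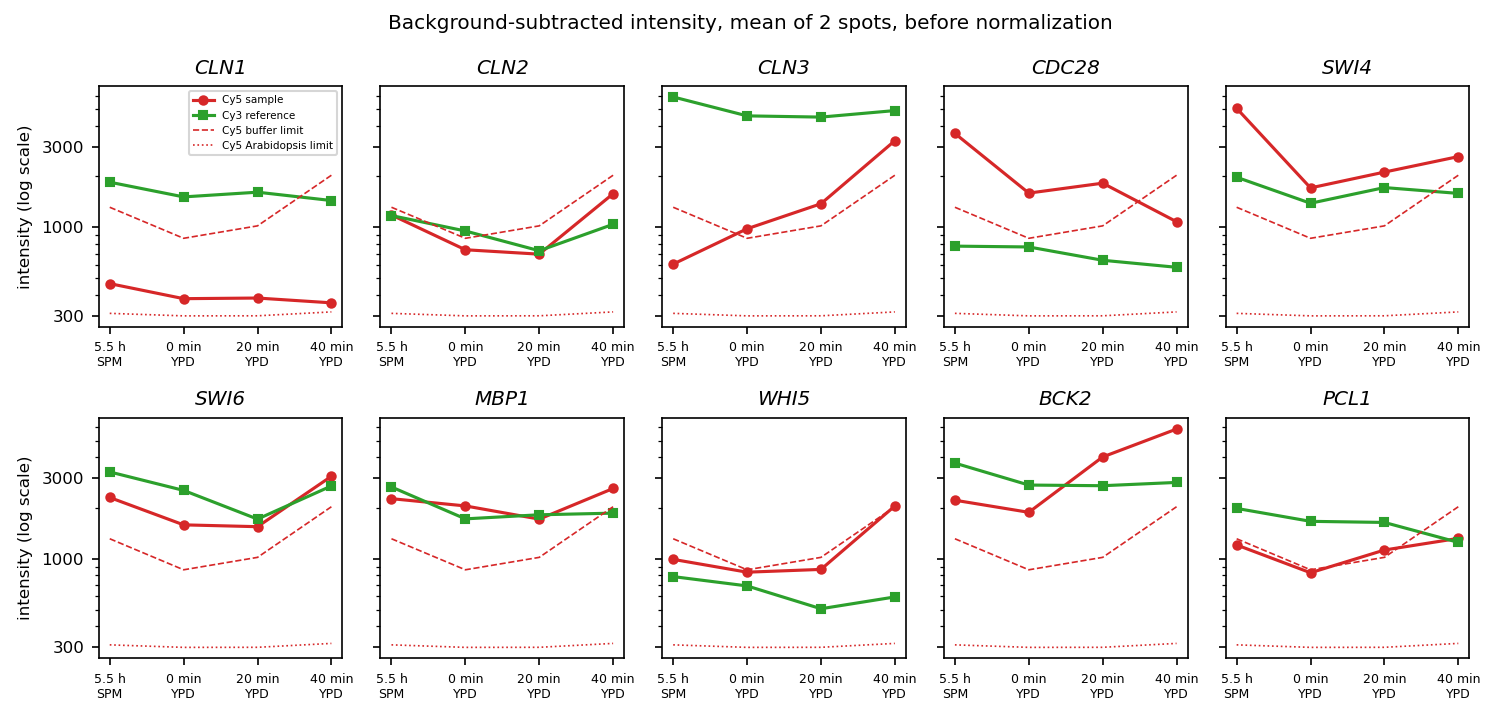
Background-subtracted intensity before normalization (vertical axis, log scale) of the 10 Start genes in the Cy5 sample and Cy3 reference on each array, as the mean of 2 spots. The dashed line is the 95th percentile of the buffer spots in Cy5 and the dotted line that of the Arabidopsis spots. The CLN3 sample crosses the dashed line between 5.5 h (607) and 0 min (982), while the line itself falls from 1316 to 862. CLN1 stays below the dashed line, between 358 and 466.

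BCK2, whose product activates G1 genes beside Cln3, had higher ratios on the later arrays but was not called. Its log2 ratio was -0.32 ± 0.04 at 5.5 h, -0.00 ± 0.11 at 0 min, 0.66 ± 0.17 at 20 min and 0.52 ± 0.13 at 40 min, above background in both channels throughout. The 2 later arrays lay above the 2 earlier ones with no overlap of spots. The change against 5.5 h was 0.32 ± 0.07, 0.98 ± 0.13 and 0.84 ± 0.09 in time order, and at 20 min the spots of 0.89 and 1.07 lay on either side of the limit. This course depended on the normalization, for with loess within each print-tip block the changes were -0.23, 0.05 and -0.08.

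CDC28 encodes the kinase that the Cln cyclins bind, and its transcript was called lower after the transfer. Its log2 ratio was 2.85 ± 0.06 at 5.5 h, 1.80 ± 0.23 at 0 min, 1.64 ± 0.09 at 20 min and 0.39 ± 0.31 at 40 min. The SPM array was the highest and the 40 min array the lowest, and neither overlapped another array. At 5.5 h the reference was not above background, and CDC28 was at least 5.62-fold higher in the sample. At 0 and 20 min, with both channels above background, the excess was 3.49-fold and 3.11-fold. The reference passed narrowly there, by the first spot alone at 0 min (893, limit 842) and the second alone at 20 min (666, limit 663). At 40 min neither channel was above background.

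The change of CDC28 against 5.5 h was -1.05 ± 0.29 at 0 min, where its spots of -1.25 and -0.84 kept it from being called. It was -1.21 ± 0.03 at 20 min and -2.46 ± 0.37 at 40 min, both called lower, and the last was at least 2.50-fold. The reference channel of CDC28 was dim on every array (Cy3 intensities of 581 to 775), so the sample channel was also compared alone. There the changes were -0.50, -0.65 and -2.20, which kept the call at 40 min and ended that at 20 min. The step from 20 to 40 min was -1.25 ± 0.40, with spots of -1.53 and -0.96.

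SWI4 encodes the DNA-binding subunit of SBF and was the other gene called lower. Its log2 ratio was 1.84 ± 0.31 at 5.5 h, 0.92 ± 0.23 at 0 min, 0.30 ± 0.26 at 20 min and 0.03 ± 0.03 at 40 min, with both channels above background on every array. The 4 arrays ranked in time order, from highest to lowest, and their spots did not overlap. SWI4 was 3.58-fold higher than in YPA-grown cells before the transfer and was within 1.02-fold of them 40 min after it. The change was -0.92 ± 0.54 at 0 min, with spots of -0.54 and -1.30, and it was -1.54 ± 0.57 at 20 min and -1.81 ± 0.33 at 40 min, a 3.50-fold decrease. With loess within print-tip blocks the excess at 5.5 h was smaller (0.73) and the change at 40 min was -1.52, which ends below the reference. The closeness to YPA-grown cells at 40 min thus depended on the normalization. In the sample channel alone the change at 20 min was -0.96, short of the limit.

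The partners of SWI4 differed from it in size and course. SWI6, the subunit shared by SBF and MBF, had log2 ratios of -0.09 ± 0.25, -0.15 ± 0.11, -0.18 ± 0.14 and -0.45 ± 0.11 in time order. Its arrays overlapped except for the last, which was the lowest, and the change at 40 min was -0.36 ± 0.36, no larger than the spread of its spots. MBP1, the DNA-binding subunit of MBF, had ratios of 0.22 ± 0.04, 0.84 ± 0.10, -0.11 ± 0.02 and -0.22 ± 0.03. The 0 min array was thus the highest for MBP1, and no arrays overlapped. Its changes against 5.5 h were 0.63 ± 0.14, -0.33 ± 0.06 and -0.43 ± 0.01 in time order, and the step from 0 to 20 min, at -0.95 ± 0.08, was just short of a call with spots of -0.90 and -1.01. Both genes were above background in both channels on every array.

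WHI5, whose product restrains SBF until Cln3-Cdc28 phosphorylates it, had nearly level ratios. They were 0.97 ± 0.08 at 5.5 h, 1.02 ± 0.19 at 0 min, 1.04 ± 0.07 at 20 min and 1.21 ± 0.04 at 40 min. The spots of the first 3 arrays overlapped. At 40 min WHI5 was called higher than the reference, where 19.7% of all genes were called higher and 17.7% lower, and it was at least 2.14-fold higher. The reference was not above background on any array, and the sample was so at 0 and 40 min but not at 5.5 h or 20 min. The change against 5.5 h was 0.04 ± 0.10, 0.07 ± 0.02 and 0.23 ± 0.04 in time order.

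CLN1, CLN2 and PCL1 are the cyclin genes that SBF activates, and none of them was called higher after the transfer. CLN1 had log2 ratios of -1.56 ± 0.00, -1.59 ± 0.05, -2.07 ± 0.12 and -2.56 ± 0.13 in time order and was called lower than the reference on every array. CLN3 and CLN1 were the 2 genes called lower at 0 min, where 21.5% of all genes were called higher and 19.0% lower than the reference, and at 20 min, where 22.3% were called higher and 20.2% lower. The Cy5 signal of CLN1, between 358 and 466, was not above the buffer spots on any array, so its deficit was at least 1.06-fold, 1.20-fold, 1.54-fold and 1.11-fold, and no fold between arrays can be given. At 40 min the measured change of its spots was -1.09 and -0.91, on either side of the limit. That change was -1.29 in the authors' value table, past the limit, and -0.61 with the study's own steps.

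CLN2, the paralog of CLN1, stayed nearer to the reference. Its log2 ratios were 0.54 ± 0.34, 0.26 ± 0.07, 0.12 ± 0.18 and -0.09 ± 0.10 in time order, with changes of -0.28 ± 0.27, -0.43 ± 0.15 and -0.63 ± 0.23, and the sample was not above the buffer spots on any array. The probes were PCR products of whole ORFs, so signal shared between CLN1 and CLN2 cannot be separated, although their ratios to the reference differed on every array. PCL1, a cyclin of the kinase Pho85, had ratios of -0.31 ± 0.40, -0.49 ± 0.11, -0.58 ± 0.10 and -0.64 ± 0.08, and its spots at 5.5 h (-0.60 and -0.03) spanned most of the YPD values. The change at 40 min was -0.32 ± 0.48 with the sample above background on neither array.

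**Figure D3:**
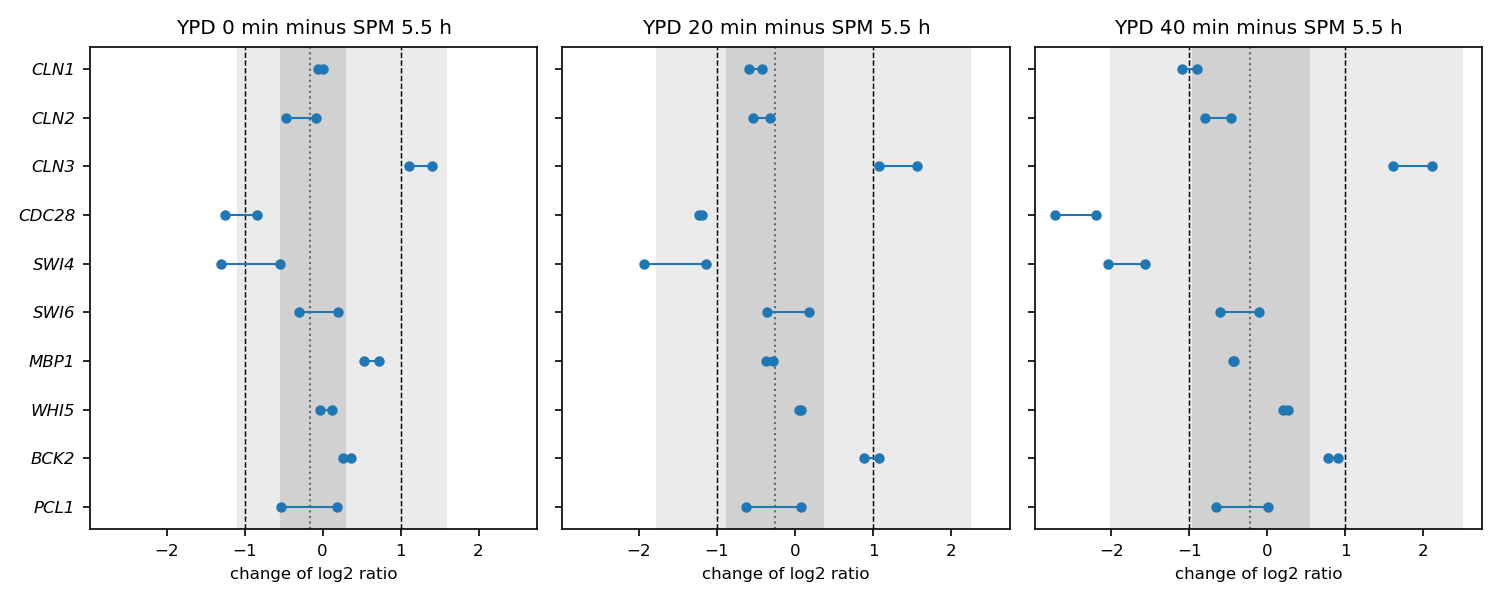
Change of the log2 ratio of each Start gene against 5.5 h in SPM (horizontal axis) at 0, 20 and 40 min in YPD. The 2 points joined by a line are the 2 spots. Dark and light grey bands hold the middle 50% and 90% of all genes, the dotted line is the median of all genes and the dashed lines mark 2-fold. CLN3 lies beyond the upper dashed line in each panel, CDC28 and SWI4 lie beyond the lower one at 20 and 40 min, and CLN3 stays within the 90% band.

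The changes of the Start genes were also placed among those of all genes. At 40 min 7.45% of genes lay below SWI4, which was above background on both arrays. By measured value 92.1% of genes lay below CLN3 and 2.06% below CDC28, but each of these has a side below background and its exact place is open. In ratio to the reference at 40 min, where CLN3 was measured in both channels, 16.4% of genes lay below it.

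The genes around Start were read from 6 further lists, whose counts stand beside shares over all genes of 13.9% called higher and 19.8% lower at 40 min, and of 21.7% higher and 18.1% lower than the reference at 5.5 h. Of the 9 Cdk1 inhibitors, activators and genes of cyclin turnover, 1 was called higher and 3 lower at 40 min, with a median change of -0.23. SIC1, which encodes the inhibitor of Cdc28 with B-type cyclins, had log2 ratios of -2.10 ± 0.00, -1.81 ± 0.48, -1.30 ± 0.14 and -0.82 ± 0.10 in time order, and its change of 1.28 ± 0.10 was at least 1.74-fold. The spots of the 3 YPD arrays did not overlap, and like CLN3 it was nearest to the reference at 40 min. CAK1, the kinase that activates Cdc28, changed by -1.46 ± 0.28. GRR1, the F-box protein that targets Cln1 and Cln2 for degradation, changed by -1.34 ± 0.45. SKP1, a shared subunit of the ubiquitin ligases of this list, changed by -1.23 ± 0.33, a call that 6 alternatives ended, with -0.74 in the sample channel alone. The call of SIC1 (1.14) was ended in the sample channel and that of GRR1 (-1.08) by array-median normalization. FAR1, the Cln-Cdc28 inhibitor of the pheromone response, was above background in neither channel on any array.

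At 5.5 h CAK1 and GRR1 were called higher than the reference, like CDC28, SWI4 and 21.7% of all genes. The log2 ratio of CAK1 was 1.58 ± 0.11 and that of GRR1 was 2.52 ± 0.42. Both were called lower against 5.5 h already at 20 min, as were 15.8% of all genes. The changes were -1.82 ± 0.10 for CAK1 and -1.51 ± 0.16 for GRR1, and neither was called at 0 min. The ratio at 5.5 h and the changes rest on the same 5.5 h array and are not independent.

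Among the 5 cofactors of SBF and MBF, 3 were called higher than the reference at 5.5 h, where 21.7% of all genes were. These were NRM1, STB1 and SKN7. At 40 min 1 of the 5 was called lower than at 5.5 h and none higher, with a median change of -0.54. That gene was NRM1, which encodes a repressor of MBF and is itself an MBF target. Its ratio went from 2.57 ± 0.38 at 5.5 h to 0.79 ± 0.03 at 40 min, a change of -1.77 ± 0.35 that was at least 1.06-fold because the 40 min array was not above background. In the authors' value table it was -0.93, short of a call.

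Of 12 upstream regulators of the CLN and SWI4 genes, 1 was called higher at 40 min and none lower, with a median of -0.20. It was XBP1, a stress-induced repressor related to Swi4 and Mbp1 in its DNA-binding domain. XBP1 had log2 ratios of -0.25 ± 0.43, 0.05 ± 0.34, 1.75 ± 0.08 and 2.63 ± 0.16 in time order. The first 2 arrays overlapped and the last 2 stood above them, and the change at 40 min of 2.88 ± 0.27 (7.38-fold) was measured above background on both arrays. ASH1, a repressor whose transcript is made in late mitosis, was called lower than the reference on every array, at least 4.06-fold at 5.5 h.

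Among Pho85 and 9 of its other cyclins, 1 gene was called higher and 2 lower at 40 min, with a median of -0.05. PCL8, a cyclin that directs Pho85 to glycogen synthase, changed by 1.51 ± 0.03 (at least 1.88-fold). PCL7 changed by -1.72 ± 0.04 (3.30-fold lower), and PCL9 by -1.16 ± 0.14 with the sample above background on neither array. For PCL9 the sample channel alone gave -0.89, short of a call.

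The targets of SBF and MBF were read as transcripts, and whether their levels followed SBF, MBF or the sporulation program was not tested. Of 13 SBF targets of budding and the cell wall, 1 was called lower and none higher at 40 min, with a median of -0.29. Of the 13, 10 had no sample signal above background on either array, and the other 3 had a median of 0.90, bounds included. SWE1 was called higher than at 5.5 h at 0 min and KCC4 at 20 min, where 7.59% and 11.5% of all genes were. The gene called lower was SVS1, a cell wall protein gene, which went from 1.56 ± 0.09 at 5.5 h to -0.32 ± 0.04 at 40 min, a 3.68-fold decrease. CRH1, a cell wall glycosidase gene, and MNN1, a mannosyltransferase gene, were called lower than the reference on every array. So were 17.7% to 20.2% of all genes. Like CLN1, these 2 genes had no sample signal above background. Their log2 ratios at 40 min were -3.94 ± 0.00 and -2.57 ± 0.37, and their exact folds are open. TOS6 was called lower at 0 min. In the other direction, HCM1 was called higher than the reference on every YPD array and SVS1 at 5.5 h. Of all genes 19.7% to 22.3% were called higher.

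Of 26 MBF targets of DNA synthesis, 7 were called lower and 1 higher at 40 min, with a median of -0.50, where 19.8% of all genes were called lower and 13.9% higher. At 5.5 h, 7 of the 26 were called higher than the reference, where 21.7% of all genes were, and none lower. CLB6 and CLB5, the B-type cyclin genes of S phase, which is also the phase of premeiotic replication they serve, were among the 7. The log2 ratio of CLB5 was 3.25 ± 0.06, 2.31 ± 0.20, 1.28 ± 0.04 and 0.65 ± 0.00 in time order, with no overlap of arrays and a 6.06-fold decrease to 40 min. That of CLB6 was 5.40 ± 0.17 at 5.5 h, where it was at least 16.2-fold above the reference, which was not above background. Its change at 40 min was -2.82 ± 0.11 (7.08-fold lower), or -1.77 in the authors' value table and -2.53 in the sample channel alone. RFA1, a subunit of the single-strand DNA-binding factor RPA, changed by -2.47 ± 0.15 (at least 1.90-fold lower), or -1.80 with print-tip loess. POL12, the B subunit of DNA polymerase alpha, was the gene called higher, with log2 ratios of -0.65 ± 0.12, -0.25 ± 0.09, 1.52 ± 0.14 and 1.75 ± 0.12 and an increase at 40 min of at least 3.08-fold.

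**Figure D4:**
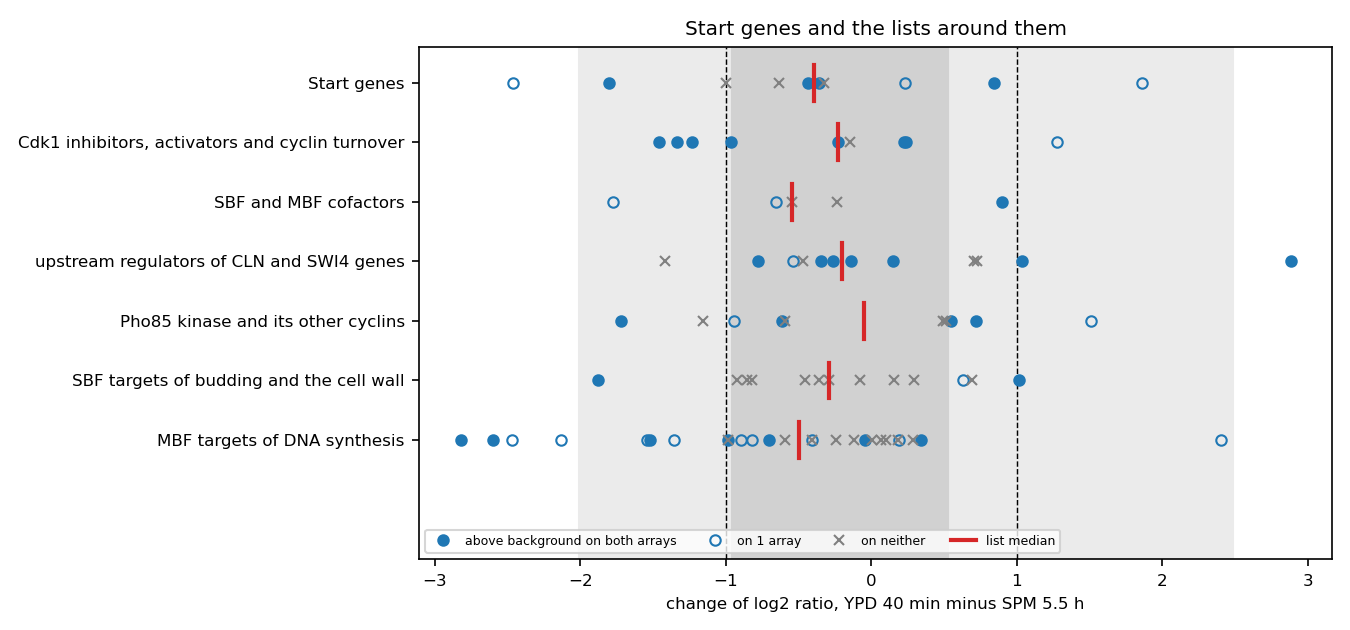
Change of the log2 ratio from 5.5 h in SPM to 40 min in YPD (horizontal axis) for the Start genes and 6 lists around them, 1 mark per gene. Filled circles were above background in the sample channel on both arrays, open circles on 1 and crosses on neither, the red bar is the list median, and the grey bands and dashed lines are as in the plot of changes. The medians lie between -0.54 and -0.05, and the MBF targets hold the 2 lowest filled circles, CLB6 and CLB5.

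The genes whose changes were most like those of a Start gene were found among 2299 other genes above background in the sample channel on all 4 arrays. Likeness was the root mean square difference of the 3 log2 changes, and it was taken for SWI4, BCK2 and MBP1, the 3 Start genes of that kind with the largest changes at 40 min. Nearest to SWI4 were IDI1 (0.0713), YIL055C (0.0811), RNY1 (0.0844), PCL7 (0.105) and PDX1 (0.117), and 316 genes lay within 0.5 of it. Nearest to BCK2 were OAC1 (0.0898), MHT1 (0.0960), PIH1 (0.143), YCLX10C (0.144) and TIM44 (0.145), with 192 genes within 0.5. Likeness was computed with the main normalization alone, and the changes of BCK2 depended on it, so these neighbours may not hold with another. Nearest to MBP1 were LEU1 (0.0741), SOL1 (0.0831), RNH201 (0.0967), ROX1 (0.114) and YPR126C (0.119), with 383 within 0.5.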

How the data were processed

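The authors hybridised 4 arrays of PCR products of yeast ORFs and quantified both channels with QuantArray. The deposited scanner files hold spot and local background intensity on a linear scale, neither background-subtracted nor normalized. The deposited value table of the authors holds log2 ratios of background-subtracted signals, floored at the buffer spots and centred on the array median, and the median of every column is 0.0. Cy5 is the sample by the dye fields, by the checklist of the study and by the scanner headers, of which 1 leaves a dye cell blank, whereas the labelling text names the opposite order. The ratios computed here correlated with that table at r = 0.986 to 0.997 across genes, so Cy5 over Cy3 was taken as sample over reference. No dyes were swapped, and dye effects of a probe remain in ratios to the reference.

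In limma 3.58.1 (R 4.3.3), normexp background correction with an offset of 50 was followed by global loess within each array, with 236 buffer and 384 Arabidopsis spots at weight 0, and by centring on the gene spots. The 2 spots of each ORF were averaged, and 17 spots of the 0 min array that carried an ignore flag were left out. Changes are log2 ratios on a YPD array minus those in SPM. Bounds come from channel values after loess and Aquantile normalization, which set the brighter side against the higher of the dimmer value and the lowest signal above background, and across channels they are open to dye bias. For a change, only the sample channel decided whether a bound was given. Across genes the 2 spots correlated at r = 0.975 to 0.982 and had an SD of 0.193 to 0.267, and the number of arrays limits the precision. The calculation was tested on simulated data.

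Of 6218 ORFs, 5663 matched the RefSeq annotation of assembly R64, used for symbols alone. The array's genome build is not given in the sources used here. All 10 members and the lists were chosen with earlier results of these data known. From each other list the 3 largest called changes in each direction at 40 min were named, and for 3 members the 5 nearest genes. Further list genes were named after their values were seen, namely FAR1, ASH1, CRH1, MNN1, TOS6, HCM1, SWE1, KCC4, STB1, SKN7, YDJ1 and PCL5. Alternatives were another background offset, array-median or print-tip normalization, the study's own steps, the authors' table, the sample channel alone, single spots, a filter on background, a limit of 1.5-fold, subtraction of the median change and Arabidopsis spots as background. Promoter motifs were not analysed here.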

Additional observations from a re-analysis of the deposited data

How the results depend on the processing

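Of 356 values of the Start genes under 10 alternatives, 266 moved by no more than the SD of their spots, 90 moved further, and no called value changed sign. Single spots included, CLN3 ranged from 1.10 to 1.45 at 0 min, 1.07 to 1.60 at 20 min and 1.61 to 2.12 at 40 min, CDC28 from -3.24 to -2.20 and SWI4 from -2.04 to -1.47 at 40 min. Counts of called Start genes moved as follows. With the 4 genes above background in both channels on every array, 1 was higher and 0 lower than the reference at 5.5 h, and against 5.5 h 0 were higher at each time, with 1 lower at 20 and 1 at 40 min; fewer genes entered. With sides below the buffer spots at their bound, an alternative chosen after seeing the data, 1 was lower at 5.5 h and 0 were higher at 0, 20 and 40 min, since CLN3 was then a bound. At 0 min 1 was lower by the first spot, by the second spot and at 1.5-fold. At 20 min 2 were higher with the array median, the sample channel, the second spot, 1.5-fold or the median change subtracted, and 0 with the study's own steps. At 20 min 1 was lower with the array median or print-tip loess, and 0 with the sample channel or the median change subtracted. At 40 min 2 were higher at 1.5-fold or with the median change subtracted, and 3 were lower in the authors' value table, by the first spot or at 1.5-fold. At 5.5 h 3 were higher than the reference by the second spot or at 1.5-fold. Beyond the filters and bounds, the cause of these shifts was not tested.

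Of all genes, 1351 were higher and 1124 lower at 5.5 h, and 471 and 256 at 0 min, 717 and 982 at 20 min and 866 and 1231 at 40 min. The background filter (1984 genes) gave 582 and 352, 159 and 61, 209 and 419, and 275 and 498. At 1.5-fold, 1693 were lower at 5.5 h, 763 higher and 923 lower at 0 min, 1845 lower at 20 min and 2017 lower at 40 min. Subtracting the median change gave 558 and 148 at 0 min, 899 and 629 at 20 min and 1077 and 925 at 40 min, and the array median gave 541 and 166 at 0 min. At 0 min, 507 were lower by the first spot, 490 by the second and 156 at bounds. Of 576 values of 16 other named list genes, 195 moved beyond the SD of their spots, and no called value changed sign. No paired analysis was possible because each group was 1 array, and for the same reason none could be left out.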

Other observations

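Some of the genes around Start had courses that the comparison at 40 min does not show, and those given here were chosen after their values were seen. YDJ1, a chaperone gene whose product is known to act on Cln3, was called higher at 0 min, by 2.46 ± 0.13. So were 7.59% of all genes. It was also called higher than at 5.5 h at 20 min, as were 11.5% of all genes. That change was 1.39, or 2.00 in the authors' value table. Its log2 ratio was -0.15 ± 0.07 at 5.5 h, 2.31 ± 0.07 at 0 min, 1.24 ± 0.05 at 20 min and 0.89 ± 0.10 at 40 min. The 0 min array was the highest, and the change at 40 min of 1.04 ± 0.16 was not called. PCL5, a Pho85 cyclin that promotes degradation of the amino acid regulator Gcn4, had log2 ratios of 0.92 ± 0.14, 1.72 ± 0.06, 2.85 ± 0.15 and 1.47 ± 0.04 in time order. It was called higher than at 5.5 h at 20 min, by 1.93 ± 0.02, and lower in the next step, by -1.38 ± 0.11, where 4.05% of all genes were called higher and 1.58% lower. The size of its rise depended on the normalization, for loess within print-tip blocks gave changes of 0.07 at 0 min and 1.08 at 20 min. CLB6 ran the other way, with a change of -4.22 ± 0.24 at 20 min (at least 8.38-fold lower) and a step of 1.39 ± 0.35 from 20 to 40 min (at least 1.45-fold higher). From 0 to 20 min, where 6.2% of all genes were called higher and 7.51% lower, PCL5, XBP1 and POL12 were called higher and CAK1 and CLB6 lower among the listed genes.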
